A study of Arabidopsis thaliana with 8 samples.

Results

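Col-0 plants grown on agar plates were compared with Col-0 plants grown in soil, using the 1 library of each kind that received no stress. Col-0 is the reference accession of Arabidopsis thaliana. Both libraries are labelled as leaf material of 2-week-old plants kept in long days, with light of 90 µmol m-2 s-1. The soil library comes from the unstressed arm of a cold experiment at 20 °C, and the plate library from the unstressed arm of a salt experiment on medium called 0.5X GM, whose composition and temperature the labels do not give. The comparison covers 12309 loci of the 26547 that had any read in the 8 libraries of the series. Loci enter if the salt tables list exactly 1 transcript model for them (20800 loci), and if they reach 5 counts per 1000000 reads (CPM) in at least 1 of the 2 Col-0 libraries. CPM are taken over the reads of these 20800 loci. Another 6424 single-model loci stayed under 5 CPM in both, and 2067 had no read in either.

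The same contrast exists in lsm8-1, a mutant in the Col-0 background that affects LSM8, which is specific to the LSM2-8 complex that binds U6 RNA in the nucleus and serves splicing. Its 2 libraries, grown under the same labels, are not used in the Col-0 comparison and are given beside it. The 4 stressed libraries (24 h at 4 °C in soil under 40 µmol m-2 s-1, and 10 h with 150 mM NaCl on plates, each in both lines) are given only where they help to place a level. Below, soil means soil at 20 °C and plates means GM plates unless stated. Each group has 1 library, so no difference here can be set against a spread between replicates, and none was tested. Growth medium, experiment, the way reads were assigned to genes and possibly the time of day and the tissue collected all differ between plates and soil, and their parts cannot be told apart. The labels do not state whether plants were pooled, at what hour they were sampled, or whether libraries kept the strand of the RNA.

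The Col-0 tables hold 44.2 M reads (M, 1000000 reads) in soil and 33.4 M on plates, of which 28.3 M and 31.0 M fell on single-model loci. A count of 0 allows up to 3 counts, that is 0.106 CPM in soil and 0.0967 CPM on plates. Ratios are printed without a pseudocount, with exact Clopper-Pearson 95% intervals. Log2 ratios are of CPM + 1 and understate the change of low genes. These bounds cover only the error of counting, because the reads carry no molecular identifiers and may repeat 1 molecule.

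Plants on an agar plate take up nutrients from a defined, moist medium, grow in still, humid air inside a closed dish, and their roots are clean and easy to lift with the shoot. Plants in soil meet microbes, dry air, and a nutrient supply that varies, and their roots stay behind when a leaf is cut. Many plant genes also follow the circadian clock, so the hour at which tissue is frozen sets the level of many transcripts. Genes of roots, of nutrient uptake, of defence, of photosynthesis and of the clock are therefore described in turn.

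Of the 12309 loci, 4616 (37.5%) were at least 2-fold higher on plates and 1099 (8.93%) at least 2-fold lower, 46.4% in all. The median log2 ratio over all loci was 0.68. The split depends on the scaling. The 100 single-model loci with the most reads took 38.9% of single-model reads in soil and 23.0% on plates, and with these left out of the total 3634 loci were higher and 1678 lower, with a median of 0.35. Centred on the median of all loci, 2272 loci (18.5%) were higher and 2206 (17.9%) lower. With TMM scaling the numbers were 2374 and 2109. The median of each gene group is therefore read against 0.68, and the counts of group members after centring on it are given where they differ. At 4-fold, 1639 loci were higher and 445 lower, and at 16-fold 281 and 91.

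**Figure D1:**
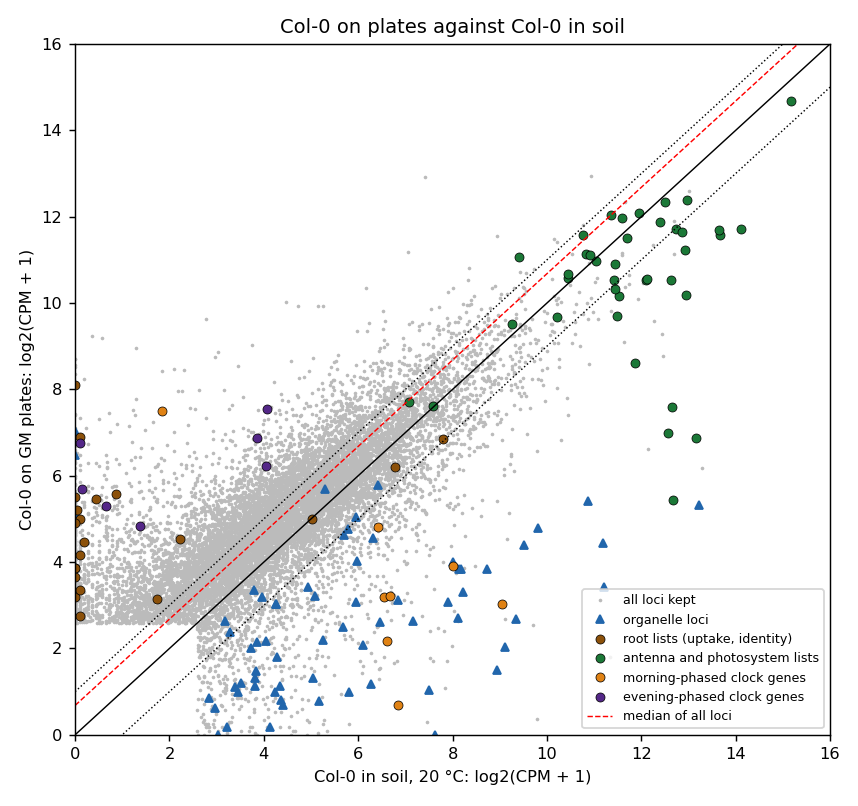
Level of each of the 12309 loci kept in Col-0 in soil (x axis) and in Col-0 on plates (y axis), both as log2(CPM + 1), 1 library each. Points on the solid line are equal, the dotted lines mark 2-fold, and the red line marks the median log2 ratio of 0.68. Most root genes (brown) lie at the left edge with little or no level in soil, other than AMT1;2, SCR and SHR, organelle loci (blue triangles) lie mostly below the lines, and the morning and evening clock genes (orange and purple) lie on opposite sides, except RVE2.

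In lsm8-1, 3126 of 12087 loci (25.9%) were higher on plates and 1234 (10.2%) lower, 36.1% in all, with a median of 0.38. Of the 4616 loci higher in Col-0, 3102 (67.2%) were at least 2-fold higher in lsm8-1, and 4586 had the same sign. Of the 1099 lower loci, 936 (85.2%) were at least 2-fold lower in lsm8-1, and 1090 had the same sign. Across the 12309 loci the log2 ratios of both lines had a Pearson correlation of 0.95 and a Spearman correlation of 0.94. The points are genes, which are not replicates, and both pairs share medium, experiment and counting.

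**Figure D2:**
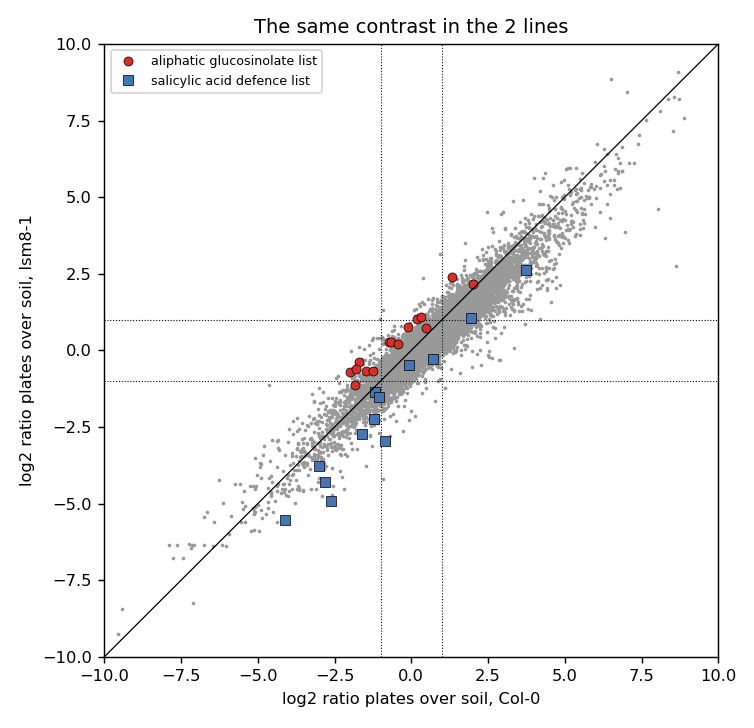
Log2 ratio of plates over soil in Col-0 (x axis) and in lsm8-1 (y axis), 1 point per locus kept in Col-0. The solid line marks equal ratios and the dotted lines mark 2-fold. Points follow the diagonal (Pearson 0.95), the salicylic acid defence genes (blue) lie mostly below 0 in both lines, and several aliphatic glucosinolate genes (red) lie above the diagonal.

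Root genes made up the clearest group higher on plates, in libraries labelled as leaves. Of 17 root uptake and transport genes, 12 have 1 model and 7 were kept. Of these 7, 6 were higher on plates (6 higher and 1 lower after centring), with a median log2 ratio of 5.03 (4.41 in lsm8-1). PHT1;1 (AT5G43350, chromosome 5), a high-affinity phosphate transporter of the root surface, had no read in soil in either line. It stood at 275 CPM on Col-0 plates and 222 CPM on lsm8-1 plates, at least 2593-fold higher in Col-0. AMT1;3 (AT3G24300), an ammonium transporter of root hairs and epidermis, stood at 0.0707 and 0.204 CPM in soil (Col-0, lsm8-1) and at 118 and 46.3 CPM on plates. Neither gene overlapped between soil and plates in any of the 8 libraries. The share of all loci for which this holds was not counted, here or below.

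NRT2.1 (AT1G08090), the main high-affinity nitrate transporter, stood at 0.354 CPM in Col-0 soil and 43.2 CPM on Col-0 plates, a ratio of 122 (66.2 to 255). In lsm8-1 it stood at 0.0681 and 15.2 CPM. TIP2;3 (AT5G47450), a tonoplast aquaporin, had no read in soil in either line and 44.7 and 36.6 CPM on plates. PIN2 (AT5G57090), the auxin efflux carrier of the root tip epidermis, stood at 0.141 CPM in Col-0 soil and 21.0 CPM on plates. FRO2 (AT1G01580), the ferric chelate reductase of the root surface, differed less, at 3.68 and 22.3 CPM, a ratio of 6.06 (4.93 to 7.53). AMT1;2 (AT1G64780), an ammonium transporter, went the other way, with 220 CPM in soil and 115 CPM on plates, a ratio of 0.525 (0.503 to 0.547).

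Genes that mark root cell types were higher as well. Of 25 listed, 24 have 1 model and 14 were kept, of which 12 were higher and none lower (11 and 1 after centring). The median was 3.75, or 3.61 with counts of 0 set to the floor, and 3.35 in lsm8-1. The CASP proteins build the scaffold of the Casparian strip, the barrier in the endodermis. CASP1 (AT2G36100) stood at 0.813 and 4.36 CPM in soil (Col-0, lsm8-1) and 46.4 and 37.9 CPM on plates. CASP4 (AT5G06200), which no soil table lists, stood at 8.09 CPM on Col-0 plates. PER64 (AT5G42180), a peroxidase of the same strip, had a ratio of 439 (121 to 3633), from 0.0707 CPM in soil to 31.1 CPM on plates.

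Root hair genes were likewise near or at 0 in soil. PRP3 (AT3G62680), a proline-rich wall protein of root hairs, stood at 0.0354 and 0.204 CPM in soil and 35.7 and 45.8 CPM on plates. LRX1 (AT1G12040), a leucine-rich repeat extensin of root hairs, had no read in soil in either line and 28.9 and 31.1 CPM on plates. The root hair expansin EXPA7 (AT1G12560), also in no soil table, stood at 13.6 CPM on Col-0 plates. The 2 members that did not differ by 2-fold, SHR (AT4G37650) and SCR (AT3G54220), are GRAS regulators that shoots also express. SHR stood at 31.3 and 31.0 CPM, and SCR at 109 and 72.1 CPM.

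Over the 36 single-model root markers of both lists, the summed level was 368 and 363 CPM in soil at 20 °C (Col-0, lsm8-1), 372 and 333 CPM at 4 °C, 997 and 789 CPM on GM plates, and 429 and 528 CPM with NaCl. Each plate library was above each soil library. Most of the Col-0 sum in soil at 20 °C came from AMT1;2, SCR and SHR, at 220, 109 and 31.3 CPM. On Col-0 GM plates these 3 genes stood at 115, 72.1 and 31.0 CPM. In Col-0 at 20 °C in soil, 19 of the 36 had no read and 3 reached 5 CPM. In Col-0 on GM plates 4 had no read and 21 reached 5 CPM. The regulators of the root tip WOX5, PLT1 and PLT2 stayed under 5 CPM in both Col-0 libraries. The label of leaf material is thus at odds with the root markers of the plate libraries. In these bulk samples a larger share of root cells and more RNA of these genes per cell cannot be told apart. The part that root tissue may have in any other difference below was not tested.

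**Figure D3:**
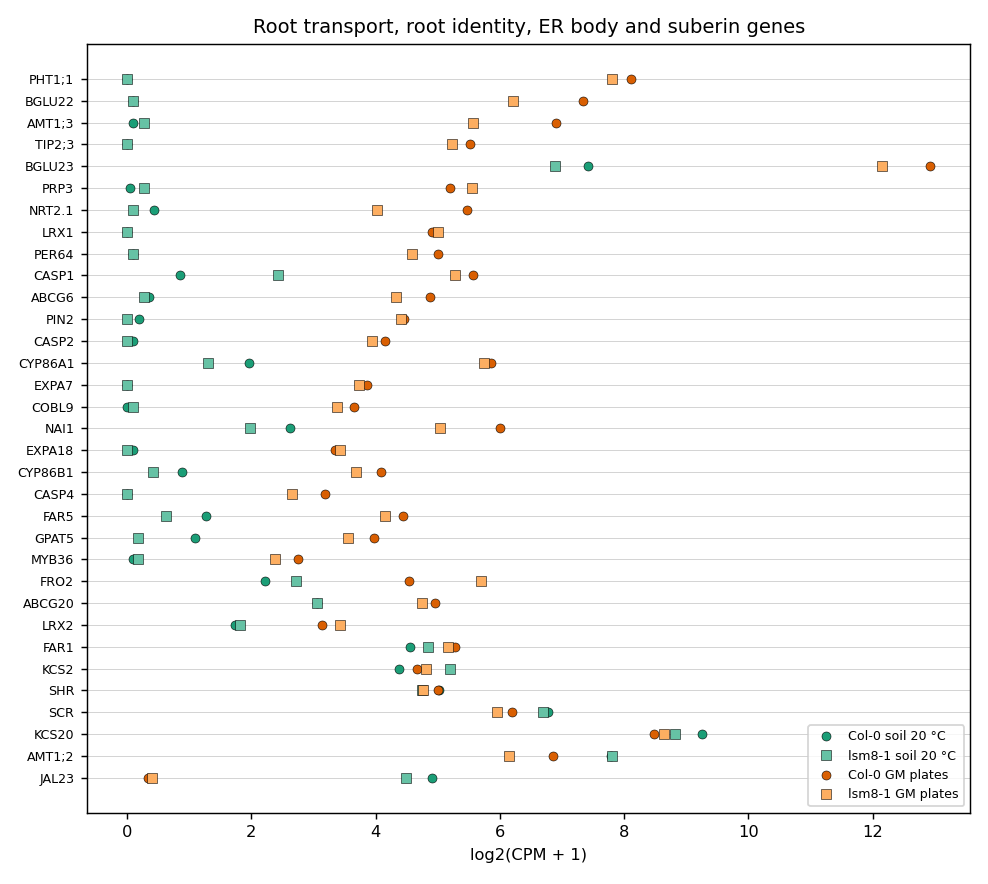
Level, as log2(CPM + 1), of the kept members, except 1 not shown, of 4 lists (root transport, root identity, ER body, suberin) in the 4 unstressed libraries, ordered by the Col-0 log2 ratio. Circles are Col-0 and squares lsm8-1, green is soil and orange is plates, 1 library per symbol. In most rows both orange symbols lie to the right of both green ones, which does not hold for SHR, SCR, KCS2, KCS20, AMT1;2 and JAL23.

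ER bodies are stores of beta-glucosidases in the cells of Brassicaceae roots and seedlings, which act on glucosides when tissue is crushed. BGLU23 (AT3G09260), also known as PYK10 and the main enzyme of these bodies, took the third most reads of the single-model loci on Col-0 plates, 7779 CPM against 170 CPM in soil, a ratio of 45.7 (44.4 to 47.1). In lsm8-1 it stood at 4514 and 117 CPM. BGLU22 (AT1G66280), a close relative, stood at 161 CPM on Col-0 plates and 0.0707 CPM in soil. NAI1 (AT2G22770), the transcription factor needed for ER body formation, stood at 63.4 and 5.13 CPM, a ratio of 12.4 (10.4 to 14.7). JAL23 (AT2G39330), a lectin of the same complex, was at 0.258 CPM on plates and 29.0 CPM in soil. RefSeq lists 3 transcripts for JAL23, and the part of reads shared between models in its low plate value was not tested. Of the list, 4 of the 13 loci have 1 model, and the list median of 4.45 changed sign relative to all loci with models summed.

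Root triterpene genes sit in gene clusters on chromosome 5 that make thalianol and marneral derivatives. All 4 members kept were higher on plates. The thalianol desaturase gene THAD (AT5G47990) stood at 147 CPM on Col-0 plates and 0.849 CPM in soil, a ratio of 173 (116 to 270). THAA1 (AT5G47980), its neighbour and an acyltransferase of the pathway, stood at 19.9 CPM on plates and is listed in no soil table. CYP705A12 (AT5G42580) and CYP71A16 (AT5G42590), both of the marneral cluster, stood at 11.5 and 16.7 CPM on plates. CYP705A12 is in no soil table, and CYP71A16 had no read in Col-0 soil. In lsm8-1 these 4 genes were lower on plates than in Col-0, at 57.2, 3.89, 1.86 and 4.14 CPM.

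Suberin is the lipid barrier laid down in root endodermis and periderm. Of 9 suberin genes kept (13 listed, 10 with 1 model), 6 were higher on plates and none lower (6 and 1 after centring), with a median of 2.88 (3.25 in lsm8-1). ABCG6 (AT5G13580), an exporter of suberin building blocks, stood at 28.2 CPM on Col-0 plates and 0.283 CPM in soil, a ratio of 99.7 (50.4 to 232). CYP86A1 (AT5G58860), the fatty acid omega-hydroxylase of root suberin, stood at 56.8 and 2.90 CPM. GPAT5 (AT3G11430), an acyltransferase of suberin synthesis, stood at 14.7 and 1.13 CPM. KCS20 (AT5G43760), an elongase of very long chain fatty acids in shoots and roots, stood at 355 and 609 CPM.

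The related surface lipids of the shoot gave another picture. Of 14 genes of wax and cutin kept (17 listed), none was higher and 1 was lower, or 3 lower after centring. The median was 0.12, which is 0.56 below that of all loci and turned below 0 with other scalings. CER5 (AT1G51500), a wax exporter, stood at 284 CPM on Col-0 plates and 185 CPM in soil. GPAT8 (AT4G00400), an acyltransferase of cutin synthesis, stood at 148 and 99.4 CPM. The member that was lower, WSD1 (AT5G37300), which makes wax esters, stood at 0.516 and 6.40 CPM but has 4 transcripts in RefSeq.

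Among the 15 loci with the highest log2 ratios, 3 are annotated as extensin-like wall proteins and 3, besides DOX1, as members of the peroxidase superfamily. All 15 were also higher on plates in lsm8-1. DOX1 (AT3G01420, chromosome 3), a fatty acid alpha-dioxygenase, came first, at 602 CPM on Col-0 plates and 0.283 CPM in soil, with 465 and 1.43 CPM in lsm8-1. The loci AT3G54580, AT1G23720 and AT3G28550, are annotated as proline-rich extensin-like proteins. They stood at 418, 380 and 495 CPM on Col-0 plates, and at 0, 0 and 1.45 CPM in soil. AT5G17820, annotated as a peroxidase, stood at 168 CPM on plates with no read in Col-0 soil.

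Of the 15, 6 are listed in no soil table at all. They are the 18S rRNA locus AT3G41768, the transcribed pseudogene AT1G79245, the noncoding RNA AT1G10682, the mitochondrial locus ATMG00020, and the peroxidase genes AT5G64100 and AT3G01190. Whole feature classes have this pattern: 153 ncRNA loci, 21 snoRNA loci and 13 snRNA loci are listed in the plate tables, and none in the soil tables. Whether such features were counted for soil is not known, so no difference is read from them. Of the 12309 loci, 173 are in no soil table, 92 of them not protein coding, and all 173 are among those counted as higher. Protein-coding members named here that are in no soil table carry the same limit. Without the 173, 4443 loci (36.6%) were higher.

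2 of the 15 differed strongly between the lines on plates. AT3G01345, an uncharacterized protein-coding gene on chromosome 3, stood at 585 CPM in Col-0 and 12.1 CPM in lsm8-1 on GM, and at 347 and 4.05 CPM with NaCl. In soil it stood at 0.495 and 0.953 CPM, and at 1.14 and 0.939 CPM at 4 °C. MLP328 (AT2G01520), a major latex protein-like gene, stood at 302 CPM in Col-0 and 26.5 CPM in lsm8-1 on GM, and 99.7 and 11.4 CPM with NaCl. Its values in the 4 soil libraries were between 0.0670 and 0.141 CPM.

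Genes of nitrogen nutrition were mostly higher on plates. Of 20 kept (32 listed, 23 with 1 model), 13 were higher and 1 lower, with a median of 1.65, which is 0.97 above all loci. Centred on all loci the counts were 10 and 3. Among all loci 37.5% were higher and 8.93% lower, or 18.5% and 17.9% after centring. BT2 (AT3G48360), a BTB scaffold protein of nitrate and stress signalling, stood at 355 and 227 CPM on plates (Col-0, lsm8-1) and 3.25 and 1.67 CPM in soil, a Col-0 ratio of 109 (88.9 to 135). HRS1 (AT1G13300), a nitrate-responsive repressor in roots, stood at 31.8 and 0.495 CPM in Col-0. LBD38 (AT3G49940), a nitrate-induced repressor, stood at 131 and 14.9 CPM.

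NPF7.2 (AT4G21680), which unloads nitrate from the xylem, stood at 30.2 CPM on plates and 0.566 CPM in soil. GLN1;1 (AT5G37600), a cytosolic glutamine synthetase, stood at 193 and 16.9 CPM, a ratio of 11.4 (10.4 to 12.6). NIA2 (AT1G37130), the main nitrate reductase gene, was the member that was lower, at 1598 CPM on plates and 3413 CPM in soil, a ratio of 0.468 (0.463 to 0.473). Its paralogue NIA1 (AT1G77760, named after its value was seen) went the other way, at 590 and 248 CPM. In lsm8-1 the pair stood at 779 and 2376 CPM for NIA2, and 270 and 157 CPM for NIA1.

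Phosphate genes were partly higher. Of 18 kept (30 listed), 10 were higher and none lower, against 37.5% and 8.93% of all loci, with a median of 1.24. After centring 6 were higher and 1 lower, against 18.5% and 17.9% of all loci. AT4 (AT5G03545), a noncoding RNA that buffers a phosphate-related microRNA, stood at 40.7 CPM on Col-0 plates and 0.919 CPM in soil. PHT1;4 (AT2G38940), a root phosphate transporter, stood at 1.98 CPM in soil, with a ratio of plates to soil of 25.3 (19.3 to 33.6). PAP17 (AT3G17790), an acid phosphatase induced by phosphate starvation, stood at 36.7 and 5.59 CPM. IPS1 and SPX3, both strongly induced by phosphate starvation, stayed under 5 CPM in both Col-0 libraries. PHR1 (AT4G28610), the master regulator of the response, stood at 63.0 and 118 CPM.

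Iron genes went in both directions, with 10 of 18 kept members higher and 2 lower (31 listed), and a median of 1.89. The shares of all loci were 37.5% and 8.93%. After centring 10 members were higher and 5 lower, against 18.5% and 17.9% of all loci. The median relative to all loci ran from -0.06 to 1.4 over the scalings and locus sets tried. Root genes that secrete coumarins, which mobilize iron, had the highest ratios. ABCG37 (AT3G53480), a coumarin exporter, stood at 175 CPM on Col-0 plates and 0.637 CPM in soil. F6'H1 (AT3G13610), the enzyme that commits phenylpropanoids to scopoletin, stood at 74.9 and 0.0707 CPM.

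The signalling peptides IMA1 (AT1G47400) and IMA2 (AT1G47395), which promote iron uptake, stood at 0.212 and 0.424 CPM in Col-0 soil, and had ratios of plates to soil of 86.0 (39.3 to 235) and 51.0 (29.0 to 99.1). In lsm8-1 they stood at 90.8 and 107 CPM on plates and 0.885 and 4.19 CPM in soil. BHLH39 (AT3G56980), a partner of the iron regulator FIT, stood at 12.2 and 0.318 CPM in Col-0, and 60.9 and 1.12 CPM in lsm8-1. These 3 genes were thus higher in lsm8-1 than in Col-0 in both media. NAS3 (AT1G09240), a nicotianamine synthase that serves metal transport, went the other way, at 9.31 CPM on Col-0 plates and 73.9 CPM in soil. PYE (AT3G47640), a repressor in the response, stood at 3.29 and 10.5 CPM, and has 3 RefSeq transcripts.

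Sulfur genes had no common direction. Of 11 kept (18 listed), 2 were higher and 2 lower, with a median of 0.21, whose sign changed with the scaling. After centring none was higher and 2 were lower. LSU2 (AT5G24660), a marker of sulfur deficiency, stood at 20.6 CPM on Col-0 plates and 83.6 CPM in soil. SDI1 (AT5G48850), another such marker, had a ratio of 0.412 (0.341 to 0.497). APR1 (AT4G04610), the adenylylsulfate reductase that sets flux into cysteine, stood at 224 and 95.2 CPM.

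Photosynthesis genes lay below the median of all loci. Of 15 antenna genes kept, none was higher and 7 were lower, with a median of -0.59 (-0.32 in lsm8-1, where 3 were higher and 4 lower). Of 24 photosystem and electron transport genes, 1 was higher and 11 lower, with a median of -0.72. After centring, 10 antenna and 14 photosystem genes were lower and none was higher. Within the photosystem list the lowest ratio was that of PSAD2 (AT1G03130), a photosystem I subunit, which stood at 389 CPM on Col-0 plates and 3747 CPM in soil, a ratio of 0.104 (0.102 to 0.106). PSAF (AT1G31330) stood at 3350 and 17601 CPM, and PSAG (AT1G55670) at 3029 and 13099 CPM. In soil PSAF and PSAG were among the 5 single-model loci with the most reads.

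The small photosystem II subunits PSBY (AT1G67740) and PSBTN (AT3G21055) stood at 1157 and 1473 CPM on plates and 7902 and 6370 CPM in soil. PSAO (AT1G08380), a photosystem I subunit, went against the group, at 2151 and 676 CPM, a ratio of 3.18 (3.13 to 3.24). In lsm8-1 PSAO stood at 3107 and 1070 CPM. The paralogue of PSAD2, PSAD1 (AT4G02770, named after its value was seen) stood at 2388 and 7818 CPM, a smaller difference.

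The LHCB2 genes of the photosystem II antenna had the lowest ratios of any antenna genes. LHCB2.3 (AT3G27690) stood at 42.1 CPM on Col-0 plates and 6492 CPM in soil, LHCB2.2 (AT2G05070) at 116 and 9102 CPM, and LHCB2.1 (AT2G05100) at 127 and 6090 CPM. Summed over the 3 genes and per 1000000 reads of the whole table, the family stood at 264 CPM on plates and 13883 CPM in soil, and 785 and 13783 CPM in lsm8-1. LHCB1.1 (AT1G29920) stood at 191 and 6411 CPM. Per 1000000 reads of the whole table, the 5 LHCB1 genes together stood at 35972 and 35830 CPM, a log2 ratio of 0.01. On that scale the median log2 ratio over single-model loci was 1.17, so the LHCB1 sum lay below it. The genes of each family are similar copies, and 2 of the LHCB2 genes have 2 RefSeq transcripts. How reads that match several copies were treated in the 2 kinds of table was not tested, so single members and family sums are uncertain.

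In the other antenna genes the differences were smaller. LHCA4, LHCB3 and LHCB4.1 were at least 2-fold lower, and the rest differed by under 2-fold. LHCB1.3 (AT1G29930) took the most reads of the single-model loci in both libraries, 26189 CPM on plates and 36738 CPM in soil. LHCA4 (AT3G47470), an antenna protein of photosystem I, stood at 1485 and 4391 CPM, a ratio of 0.338 (0.335 to 0.342). LHCB3 (AT5G54270) stood at 1139 and 2962 CPM, and LHCB4.1 (AT5G01530) at 3343 and 6806 CPM. LHCB5 (AT4G10340) stood at 4203 and 2612 CPM, above its soil level but under 2-fold.

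Of 6 kept genes of Rubisco and the Calvin cycle, 1 was higher and 1 lower, or none and 3 after centring. PRK (AT1G32060), phosphoribulokinase, stood at 2248 CPM on plates and 6587 CPM in soil. GAPA1 (AT3G26650), a plastid glyceraldehyde phosphate dehydrogenase, stood at 3607 and 1740 CPM. The 4 genes of the Rubisco small subunit, summed per 1000000 reads of the whole table, stood at 16536 and 44582 CPM, a log2 ratio of -1.43. RBCS2B (AT5G38420) and RBCS1B (AT5G38430) stood at 6151 and 5143 CPM on plates and 8296 and 3201 CPM in soil. The other 2 family members have several models and were left out of the list counts, but are part of this sum. Such loci appear to lose reads in the plate tables, so no difference is read from the summed ratio.

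In the leaf epidermis, the stomatal lineage factor MUTE (AT3G06120) stood at 2.26 CPM on Col-0 plates and 12.9 CPM in soil. Its counted feature was 823 bases long on plates and 2174 bases in soil, so these values compare unlike features. SPCH (AT5G53210), which starts the lineage, stood at 9.19 and 26.8 CPM. FAMA (AT3G24140), which ends it, stood at 25.9 and 51.8 CPM. TMM (AT1G80080), a receptor-like protein of the lineage, stood at 32.5 and 18.1 CPM. Over the list, 2 of 8 were lower and none higher, or 4 lower after centring. The list median was -0.31, or 0.02 over the members with 1 RefSeq transcript. The summed level of the 30 single-model leaf markers was 126524 and 134009 CPM in soil and 76026 and 101492 CPM on plates (Col-0, lsm8-1). It was 70021 CPM in Col-0 at 4 °C in soil, so plates and soil overlapped over the 8 libraries.

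Chloroplast loci were lower on plates as a class. Chloroplast loci held 1.48% of all reads in Col-0 soil (1.48 to 1.49, Wilson 95% interval) and 0.0590% on Col-0 plates (0.0582 to 0.0598). In lsm8-1 the shares were 1.1% and 0.109%. Mitochondrial loci held 0.0367% in soil and 0.0225% on plates in Col-0. In lsm8-1 their share was higher on plates, with 0.0276% in soil and 0.0791% on plates. The plate shares include ATMG00020, which no soil table lists and which held 4020 reads in Col-0 and 10747 in lsm8-1. No difference is therefore read from the mitochondrial shares. Of 66 organelle loci kept, 56 were lower and 3 higher, with a median of -3.05. The 56 chloroplast loci kept had 48 lower and 1 higher, and the 10 mitochondrial loci 8 lower and 2 higher. ATMG00020 was among the 2 higher mitochondrial loci. ATCG00480 stood at 39.0 CPM on plates and 9619 CPM in soil, and ATCG00470 at 9.77 and 2372 CPM. Of the 15 loci with the lowest ratios, 8 were organelle loci. The labels do not state whether RNA was selected by its poly(A) tail, which most organelle RNA lacks, and the part of library preparation was not tested.

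The remaining 7 of the 15 lowest loci are nuclear, and all 15 were also lower on plates in lsm8-1. PIP2;1 (AT3G53420), a plasma membrane aquaporin, had the lowest ratio, at 2.48 CPM on Col-0 plates and 2592 CPM in soil. GRP23 (AT2G32690), a glycine-rich protein, stood at 0.290 and 886 CPM. RefSeq lists 2 transcripts for PIP2;1 and 5 for GRP23, although the plate tables list 1 model, and the part of reads shared between models was not tested. Reads covered 48.5% of the PIP2;1 model on plates and 97.7% of the gene in soil. At least 16-fold lower were 29 of the 8555 kept loci with 1 RefSeq transcript and 38 of the 3576 with several.

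BBX16 (AT1G73870), a B-box zinc finger protein with 1 RefSeq transcript, stood at 1.13 CPM on plates and 227 CPM in soil, 201-fold lower (144 to 289). AT5G42530, an uncharacterized gene with 1 transcript, was among the 5 single-model loci with the most reads in soil and stood at 70.9 CPM on plates and 9927 CPM in soil. In lsm8-1 it stood at 25.4 and 7904 CPM. AT3G41762, another uncharacterized gene, and the pseudogene AT2G07080 stood at 0.226 and 4.80 CPM on Col-0 plates and 174 and 834 CPM in soil. For AT3G41762 the counted feature was 560 bases long on plates and 2532 bases in soil, so its values compare unlike features.

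Clock genes were split by the time of day at which they peak. The plant clock is a loop in which morning-phased factors repress evening-phased ones and are in turn repressed by them. All 7 kept evening genes were higher on plates (11 listed), with a median of 3.5 (3.67 in lsm8-1). Of 8 kept morning genes (19 listed), 7 were lower and 1 higher, with a median of -3.79 (-3.76 in lsm8-1). Both medians kept their sign under every scaling and locus set tried, as did their position relative to all loci. CCA1, LHY and PRR9, core genes of the morning loop, have several models and were left out.

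ELF4 (AT2G40080), part of the evening complex, stood at 0.0707 and 0.681 CPM in soil (Col-0, lsm8-1) and 107 and 101 CPM on plates. FKF1 (AT1G68050), a blue light receptor that times flowering, stood at 0.106 and 0.0681 CPM in soil and 50.9 and 58.1 CPM on plates. TOC1 (AT5G61380), a core evening repressor, stood at 15.7 and 15.3 CPM in soil and 187 and 160 CPM on plates. For each of these both plate libraries lay above both soil libraries, an order that was not counted over all loci. BOA (AT5G59570) and PRR5 (AT5G24470), another evening factor and a late-day repressor, had ratios of 67.4 (41.3 to 118) and 17.2 (12.8 to 23.8).

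Among morning genes COL2 (AT3G02380), a relative of CONSTANS, stood at 530 and 424 CPM in soil and 7.15 and 4.08 CPM on plates. COL1 (AT5G15850) stood at 96.3 and 88.8 CPM in soil and 3.48 and 1.99 CPM on plates. CDF3 (AT3G47500), a DOF repressor of flowering, stood at 258 and 239 CPM in soil and 14.0 and 21.3 CPM on plates. LNK3 (AT3G12320), a clock coactivator, had a lower ratio still, but has 3 RefSeq transcripts. RVE2 (AT5G37260), a MYB factor related to CCA1, went against the group, at 2.58 and 5.38 CPM in soil and 181 and 138 CPM on plates.

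The stressed libraries place these levels. With NaCl, COL2 stood at 4.94 and 5.55 CPM and ELF4 at 168 and 184 CPM, near the GM plates. At 4 °C in soil COL2 stood at 314 and 306 CPM, near soil at 20 °C, while TOC1 stood at 119 and 99.3 CPM and PRR5 at 119 and 121 CPM, above both soil libraries at 20 °C. The sampling hour is not given, and a difference in hour cannot be told apart from one of medium.

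**Figure D4:**
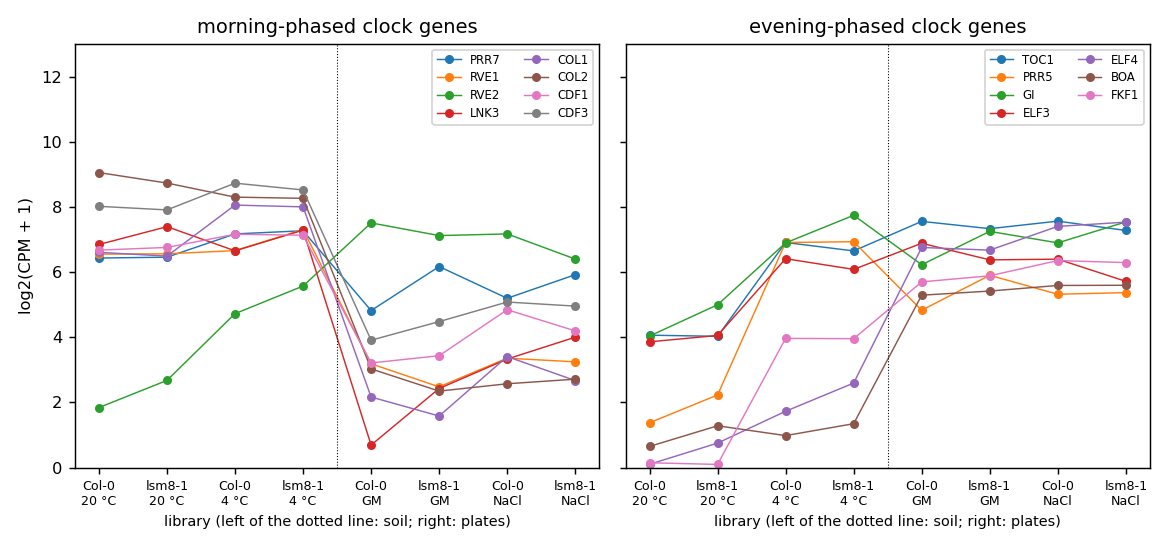
Level of the kept morning-phased (left) and evening-phased (right) clock genes, as log2(CPM + 1), in each of the 8 libraries, 1 line per gene. The 4 soil libraries are left of the dotted line and the 4 plate libraries right of it; lines only join the values of 1 gene. All morning genes but RVE2 lie lower on plates, and all evening genes lie higher on GM plates than in soil at 20 °C.

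Salicylic acid defence genes were mostly lower on plates. Of 13 kept (27 listed, 21 with 1 model), 8 were lower and 2 higher (9 and 2 after centring). The shares of all loci were 8.93% lower and 37.5% higher, or 17.9% and 18.5% after centring. The list median was -1.19, which is 1.87 below all loci. In lsm8-1, 9 were lower and 2 higher, with a median of -2.25. PR1 (AT2G14610), the classic marker of salicylic acid signalling, stood at 5.09 and 33.1 CPM in soil (Col-0, lsm8-1) and at 0 and 0.128 CPM on plates, at least 52.7-fold lower in Col-0. PR2 (AT3G57260), a glucanase, stood at 22.7 and 60.5 CPM in soil and 0.355 and 0.321 CPM on plates. For both genes all 4 soil libraries were above all 4 plate libraries, an order that was not counted over all loci.

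EDS1 (AT3G48090), a hub of immune signalling, stood at 47.4 CPM in Col-0 soil and 4.96 CPM on plates. WRKY70 (AT3G56400), a regulator of salicylic acid responses, stood at 65.4 and 8.44 CPM, a ratio of 0.129 (0.113 to 0.147). UGT76B1 (AT3G11340), a glucosyltransferase that dampens the response, was higher on plates, at 43.4 and 2.33 CPM. EDS5 (AT4G39030), a transporter for salicylic acid synthesis, stood at 22.2 and 4.99 CPM. ICS1, which makes most salicylic acid, has several models and is not compared.

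Jasmonate and ethylene defence genes went both ways. Of 13 kept (29 listed), 3 were higher and 4 lower (2 and 6 after centring), and the median of -0.08 changed sign with the scaling. TAT3 (AT2G24850), a jasmonate-induced aminotransferase, stood at 0.0645 CPM on Col-0 plates and 10.4 CPM in soil, a ratio of 0.00620 (7.47e-04 to 0.0226). With NaCl on plates TAT3 stood at 21.8 CPM in Col-0. AOC2 (AT3G25770), an enzyme of jasmonate synthesis, stood at 299 and 43.4 CPM. CHIB (AT3G12500), a basic chitinase, stood at 9.80 and 1.27 CPM.

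Early response genes of touch and wounding were lower in 5 of 8 kept and higher in 2 (6 and 1 after centring), with a median of -1.13. The shares of all loci were 8.93% lower and 37.5% higher, or 17.9% and 18.5% after centring. In lsm8-1 2 members were lower and 1 higher, against 10.2% and 25.9% of all loci. ZAT10 (AT1G27730), a zinc finger repressor, stood at 36.0 and 33.9 CPM in soil and 6.77 and 6.04 CPM on plates. CML24 (AT5G37770), a touch-induced calmodulin-like protein, stood at 127 and 94.1 CPM in soil and 36.3 and 47.8 CPM on plates. XTH22 (AT5G57560), known as TCH4, stood at 58.8 and 22.1 CPM in Col-0 but 37.9 and 42.8 CPM in lsm8-1.

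Glucosinolates are the sulfur-rich defence compounds of Brassicaceae, in an aliphatic class made from methionine and an indolic class made from tryptophan. Of 15 aliphatic genes kept (20 listed), 6 were lower on plates and 2 higher (9 and 1 after centring), with a median of -0.67. In lsm8-1, 1 was lower and 4 higher, with a median of 0.26. MAM1 (AT5G23010), which elongates the methionine chain, stood at 757 CPM in Col-0 soil and 230 CPM on plates, and at 795 and 614 CPM in lsm8-1. IPMI2 (AT2G43100), an isomerase subunit of the same cycle, stood at 410 and 102 CPM in Col-0, and 444 and 272 CPM in lsm8-1. MYB29 (AT5G07690), a regulator of the pathway, stood at 100 and 27.6 CPM in Col-0, and 126 and 56.6 CPM in lsm8-1. The lines were close in soil and apart on plates for these 3 genes.

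CYP79F2 (AT1G16400) and MAM3 (AT5G23020), which act on long-chain aliphatic precursors, were higher on plates, at 61.7 and 88.4 CPM against 14.5 and 34.9 CPM in soil. Indolic and camalexin genes were higher in 8 of 15 and lower in none, against 37.5% of all loci higher, with a median of 1.25. After centring 4 were higher and 3 lower, near the shares of all loci, 18.5% higher and 17.9% lower. CYP81F4 (AT4G37410), which modifies indole glucosinolates in roots, stood at 185 and 4.81 CPM in Col-0, a ratio of 38.5 (32.5 to 46.0). MYB34 (AT5G60890), a regulator of the indolic branch active in roots, stood at 94.8 and 29.0 CPM. PAD3 (AT3G26830) and CYP71A12 (AT2G30750), of camalexin and related synthesis, stood at 11.8 and 27.6 CPM on plates and 0.566 CPM each in soil. CYP83B1 (AT4G31500), a step shared by the indolic branch, stood at 339 and 632 CPM.

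Anthocyanin genes were lower on plates. Of 17 flavonoid genes kept (26 listed), 9 were lower and 2 higher (10 and 1 after centring), with a median of -1.26 (-1.21 in lsm8-1). The shares of all loci were 8.93% lower and 37.5% higher, or 17.9% and 18.5% after centring. The lowest ratio was that of a late enzyme: DFR (AT5G42800), dihydroflavonol reductase, stood at 2.74 CPM on Col-0 plates and 76.7 CPM in soil, and at 10.3 and 86.1 CPM in lsm8-1. 5MAT (AT3G29590), which adds malonyl groups to anthocyanins, had a ratio of 0.0384 (0.0244 to 0.0578). PAP1 (AT1G56650), the MYB activator of the branch, stood at 0.806 and 13.3 CPM, a ratio of 0.0604 (0.0386 to 0.0906). MYB12 (AT2G47460), an activator of flavonols that also acts in roots, was higher, at 11.6 and 0.849 CPM.

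Light and shade genes included the early light-induced proteins ELIP1 (AT3G22840) and ELIP2 (AT4G14690), which protect chloroplasts under excess light. ELIP1 stood at 7.73 CPM on Col-0 plates and 31.7 CPM in soil, and ELIP2 at 2.51 and 24.3 CPM. The shade-responsive ATHB2 (AT4G16780) stood at 6.74 and 23.3 CPM. Of the 5 members kept, these 3 were lower and none was higher, and the labelled photon flux was the same for both media.

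Abscisic acid, cold and osmotic stress genes were mixed, with 7 of 13 higher and 3 lower, or 6 and 4 after centring (38 listed, 22 with 1 model). Among all loci 37.5% were higher and 8.93% lower, or 18.5% and 17.9% after centring. The median of 1.64 became -0.56 when all loci were used with models summed. COR15B (AT2G42530), a chloroplast cryoprotectant, stood at 370 CPM on Col-0 plates and 9.87 CPM in soil, a ratio of 37.5 (33.3 to 42.4), and at 150 and 8.75 CPM in lsm8-1. LTI30 (AT3G50970), a dehydrin, stood at 58.2 and 6.40 CPM, and KIN2 (AT5G15970) at 403 and 45.2 CPM. The plate level of COR15B in Col-0 was far under its levels in stress, 1783 CPM at 4 °C and 1190 CPM with NaCl.

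ABI1 (AT4G26080), a phosphatase of the abscisic acid pathway, stood at 106 and 19.6 CPM. GOLS1 (AT2G47180), a galactinol synthase, and ATHB12 (AT3G61890), a homeobox factor induced by abscisic acid, were lower on plates, at 5.77 and 6.77 CPM against 46.1 and 30.4 CPM. The members kept thus include genes on both sides of their soil level.

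Cell wall loosening genes included several that were higher. Of 12 XTH genes kept (16 listed), which cut and rejoin xyloglucan, 8 were higher and 1 lower (5 and 1 after centring), with a median of 1.45. Among all loci 37.5% were higher and 8.93% lower, or 18.5% and 17.9% after centring. XTH14 (AT4G25820), which is in no soil table, and XTH20 (AT5G48070), with no read in soil in either line, stood at 23.9 and 19.9 CPM on Col-0 plates. XTH18 (AT4G30280) stood at 43.4 and 0.778 CPM, and XTH24 (AT4G30270) was lower, at 105 and 401 CPM. Of 10 alpha-expansins, 5 were higher and 1 lower (4 and 2 after centring), near the 37.5% of all loci that were higher, with a median of 1.06. EXPA8 (AT2G40610) was lower in Col-0, at 78.7 and 159 CPM, but stood at 193 and 147 CPM in lsm8-1.

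Aquaporins showed no common direction: 6 of 15 were higher and 2 lower (4 and 4 after centring), and the median of 0.61 lay 0.07 under that of all loci. Those with the highest ratios were NIP1;1 (AT4G19030), at 40.0 CPM on Col-0 plates with no read in soil, TIP4;1 (AT2G25810), at 26.9 and 0.637 CPM, and PIP2;4 (AT5G60660), at 45.4 and 3.68 CPM. NIP5;1 (AT4G10380), a boric acid channel of roots, stood at 37.5 and 3.36 CPM.

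Cell division genes stood close to the median of all loci. Of 17 kept, 6 were higher and none lower, a share of members near the 37.5% of all loci, and after centring 1 was higher and 1 lower. CDKB1;1 (AT3G54180), a mitotic kinase, had a ratio of 3.97 (3.26 to 4.86). KNOLLE (AT1G08560), the syntaxin of the cell plate, stood at 71.8 and 24.0 CPM. CYCD3;1 (AT4G34160), a cyclin of the G1 phase, stood at 57.8 and 82.2 CPM.

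Sugar genes were few. Of 9 starvation genes kept, 5 were higher and none lower, against 37.5% of all loci higher, and after centring 3 were higher and 2 lower. MIOX2 (AT2G19800), a myo-inositol oxygenase, stood at 27.9 and 1.66 CPM, and BGLU30 (AT3G60140), also known as DIN2, at 6.09 CPM with no read in Col-0 soil. Of 3 sugar-induced genes, 2 were higher, or 1 after centring. STP13 (AT5G26340), a hexose transporter, stood at 53.3 and 0.813 CPM, while APL3 (AT4G39210), a starch synthesis subunit, stood at 28.8 and 28.2 CPM. Among hypoxia genes 3 of 6 were higher, near the share of all loci, and after centring 1 was higher and 1 lower. PDC1 (AT4G33070), pyruvate decarboxylase, came with a ratio of 7.69 (5.45 to 11.1). The 3 heat shock genes kept did not differ by 2-fold, with HSP70 (AT3G12580) at 64.7 and 47.9 CPM.

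**Figure D5:**
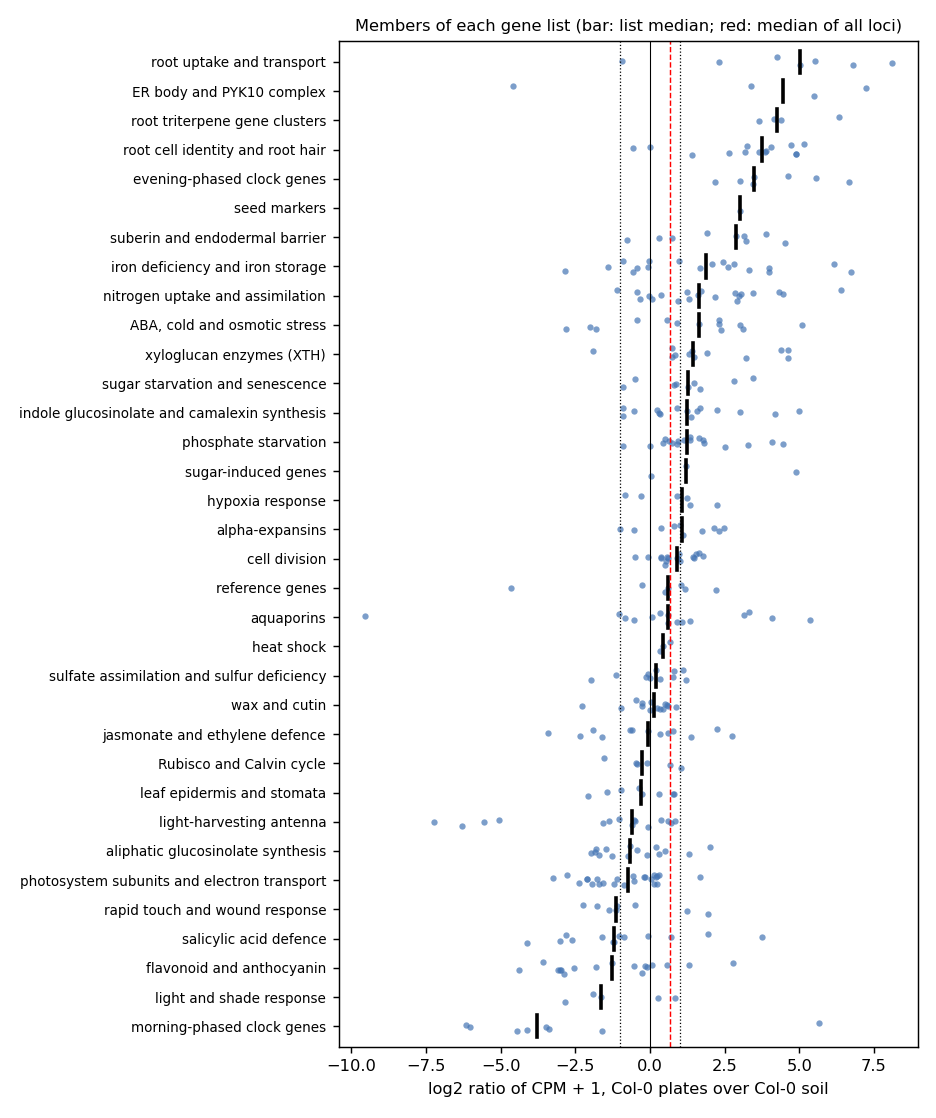
Log2 ratio of CPM + 1, Col-0 plates over Col-0 soil, for each kept member of the gene lists (blue points, spread vertically for visibility), with the list median as a black bar. The red line marks the median of all loci (0.68) and the dotted lines mark 2-fold. Root, ER body and evening clock lists lie to the right, and morning clock, light response, flavonoid and salicylic acid lists to the left.

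Of 7 flower markers, 5 have 1 model, and none of these reached 5 CPM in either Col-0 library. SEP3 has several models and AP1 has no model listed, so neither was compared. Among 7 single-model seed markers, OLEO2 (AT5G40420), an oil body protein, was the member kept, at 7.12 CPM on Col-0 plates, and is in no soil table. Genes often used as references also differed. ACT7 (AT5G09810) stood at 961 and 208 CPM, a ratio of 4.61 (4.49 to 4.75), and at 980 and 224 CPM in lsm8-1. TIP41L (AT4G34270) stood at 35.7 and 22.9 CPM, and SAND (AT2G28390) at 57.4 and 69.2 CPM. PP2AA3 (AT1G13320) stood at 1.68 and 66.8 CPM but has 4 RefSeq transcripts. Of the 7 kept, 3 were higher and 1 lower (1 and 1 after centring), and the median was 0.62, close to that of all loci.

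The ratio differed with the length of the feature. The median log2 ratio was 0.87 in the 192 loci under 500 bases and 0.50 in the 1074 loci of 3000 bases or more. At the lower limit of expression the highest CPM in either library was 5.021 for AT5G02430 and AT5G23350, which were kept, and 4.995 for NAC6 (AT5G39610) and NVL (AT1G08300), which were not.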

How the data were processed

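The study sequenced RNA of Col-0 and lsm8-1 in 4 conditions, 8 libraries. Per the file headers, the deposited tables give uniquely placed reads (raw counts), RPKM, feature length in bases and covered share in percent. Soil tables list genes and plate tables transcript models. The feature length of some loci differs between them. Among loci of the same length in both, 4329 of 11682 were higher on plates and 998 lower. The authors' deposited RPKM values were not used. The genome build was TAIR10, per the submitters' processing notes. The aligner is not given in the sources used here, nor is the counter. Names come from TAIR10.1, so no coordinates are printed. That annotation holds all 631 members of the 35 gene lists. Promoter sequences were not analysed here, and 1 list member is counted but not reported by name.

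Counts were scaled to CPM over 20800 single-model loci. Log2 ratios used a pseudocount of 1 CPM, loci that reached 5 CPM in either library were kept, and a 2-fold difference was counted. No test was made, since each group has 1 library. Shares have Wilson and ratios exact Clopper-Pearson 95% intervals. Named genes are the 15 highest and 15 lowest ratios, in each list up to 5 members with the largest ratio and up to 2 against the list median, the 5 loci with the most reads in each library, and the tissue markers. Members and lists were chosen with earlier results of these data known. Alternatives used TMM factors (edgeR 4.0.16) and size factors (DESeq2 1.42.0) in R 4.3.3, other CPM totals, pseudocounts, filters and locus sets. Other steps ran in Python 3.11.15 with scipy 1.17.1, and were tested on simulated data. Models of loci with several models, 5144 loci, appear to lose reads in the plate tables and were left out.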

Additional observations from a re-analysis of the deposited data

Results flagged for a closer look

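The aliphatic glucosinolate list had a median log2 ratio of plates over soil of -0.67 in Col-0 and of 0.26 in lsm8-1, over the 15 genes kept in Col-0. It was singled out because the medians have opposite signs in the 2 lines. With 1 library per group the difference was not tested. The median of all loci was 0.68 in Col-0 and 0.38 in lsm8-1, so both list medians lie below it.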

How the results depend on the processing

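The counts depend on scaling and on the locus set. Against 4616 loci higher and 1099 lower, TMM gave 2374 and 2109, DESeq2 size factors 2256 and 2212, and centring on the median of all loci 2272 and 2206. CPM over all reads gave 635 lower, leaving out the 100 loci with the most reads gave 1678 lower, and all loci with models summed gave 7028 and 3593. Loci with 1 RefSeq transcript gave 729 lower among 8859. The last set, centring, and loci listed in at least 1 soil table (4478 and 1087) were added after the data were seen. Other pseudocounts, filters and locus sets stayed within 1.5 times. The abscisic acid and cold list turned from a median of 1.64 to -0.56 with models summed; the cause was not tested. Over all alternatives the medians of the wax, Rubisco, leaf epidermis, sulfate, jasmonate, aquaporin, heat shock and reference lists also changed sign. No paired analysis was possible because each group has 1 library. No replicate could be left out for the same reason. At 0.106 and 0.0967 CPM for 3 counts, depth limits the ratios of genes with no read in soil, 259 of those higher, and of 10 with none on plates.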

Other observations

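2 loci were at least 2-fold apart in opposite directions in the 2 lines. AT5G51440, annotated as an HSP20-like chaperone, stood at 2.33 CPM in Col-0 soil and 6.16 CPM on Col-0 plates, but at 60.7 and 25.6 CPM in lsm8-1. It was higher in lsm8-1 than in Col-0 in each of the 4 conditions, with 25.4 and 90.9 CPM at 4 °C and 19.7 and 48.4 CPM with NaCl. The chloroplast locus ATCG00350 stood at 54.0 CPM in soil and 26.2 CPM on plates in Col-0, and at 22.8 and 47.8 CPM in lsm8-1.

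THI1 (AT5G54770), the thiazole synthase of thiamine synthesis, took the second most reads of the single-model loci on Col-0 plates, at 7829 CPM against 1948 CPM in soil, a ratio of 4.02. In lsm8-1 it stood at 8422 and 1528 CPM. Each plate library lay above each soil library, an order that was not counted over all loci.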
